A study of Mus musculus with 12 samples.

Results

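The genes described here are 10 genes of the granules and the abundant cytosolic proteins of granulocytes, the white blood cells that include neutrophils. They are Mpo, Elane, Prtn3 and Ctsg of the azurophil granules, Camp, Ngp, Ltf and Mmp8 of the specific and gelatinase granules, and the calprotectin genes S100a8 and S100a9. They were chosen by name, out of 19938 genes that the arrays measured with at least 1 transcript cluster (a set of probes along a gene) annotated to a single gene. Each of the 10 had 1 such cluster. The rule used no measured value.

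Transcript levels were measured in whole liver of mice aged 2 weeks, with 12 arrays of the Affymetrix Gene 1.0 ST design. Each of 4 genotypes had 3 arrays, lettered A to C. The genotypes were Stat3Δhc Mdr2-/-, Stat3Fl/Fl Mdr2-/-, Stat3Δhc and Stat3Fl/Fl. Stat3Fl/Fl mice carry a floxed Stat3, the transcription factor gene downstream of interleukin 6, and Stat3Δhc livers are Stat3 knockouts, for which the labels name no Cre driver. Mdr2 is the product of Abcb4, the canalicular phospholipid transporter whose absence gives a mouse model of sclerosing cholangitis, and the series asks which pathways lead to cholestasis and liver injury when both genes are lost. The 2 genotypes without the Mdr2 knockout carry no such allele in their labels. The labels do not say whether each array holds a separate animal, so the p-values measure the spread between these arrays, which may be technical in part.

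Neutrophils build their granules in waves as they mature in the marrow, and in young rodents also in the liver. Azurophil granules are filled in promyelocytes with myeloperoxidase and serine proteases, and specific and gelatinase granules later with lactoferrin, cathelicidin and collagenase. Transcripts of the granule proteins are therefore most abundant in precursors, whereas S100a8 and S100a9 stay abundant in circulating neutrophils and also in monocytes.

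The values are log2 signals after RMA, a normalization that puts all arrays on 1 scale, so that a difference of 1 is a doubling. The median over all clusters differed little between arrays (6.009 to 6.137), and within a genotype the arrays had a Pearson r of 0.980 to 0.991. Stat3 was 2.79-fold lower in Stat3Δhc Mdr2-/- than in Stat3Fl/Fl Mdr2-/- liver and 2.88-fold lower in Stat3Δhc than in Stat3Fl/Fl liver, with no overlap between arrays. The source name field exchanges the 2 Mdr2-/- genotypes, and the other labels and the Stat3 signal of each array go with the titles, which were used here. Alb, the defining hepatocyte transcript, lay between 13.65 and 13.89 in all arrays. Skeletal muscle transcripts, of 5 marker genes, averaged 5.55 to 6.07 in the 6 Mdr2-/- arrays and 9.14 to 9.96 in the other 6. This difference divides the arrays exactly as the Mdr2 genotype does. In both comparisons of Mdr2 loss, whatever lies behind it therefore cannot be told apart from Mdr2 loss. Xist, the RNA that coats the inactive X, was high and Y-linked transcripts low in 1 of 3 Stat3Δhc Mdr2-/- arrays (array A), in 3 of 3 Stat3Fl/Fl Mdr2-/- arrays, and in 0 of 6 arrays of the other genotypes. Mdr2 loss in floxed liver and this pattern therefore cannot be told apart. Within Stat3Δhc Mdr2-/- liver array A differed from arrays B and C in this pattern, so it was not a technical repeat of them.

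The promoters of the 4 members that varied most between arrays (Ngp, S100a8, S100a9 and Ltf) are printed because their signals moved up and down together. They run from 250 bases before to 50 bases after the start site and come from RefSeq with the mouse assembly GRCm38.p6, which matched 10 of 10 members. Capitals mark matches, on either strand, to TTGCNNAA (C/EBP), GAGGAA (PU.1), TGTGGT (RUNX) or TTCNNNGAA (STAT), motifs of factors that work in granulocyte precursors and, for STAT, of the deleted gene's family.
Ngp (chr9:110419558-110419857, plus strand): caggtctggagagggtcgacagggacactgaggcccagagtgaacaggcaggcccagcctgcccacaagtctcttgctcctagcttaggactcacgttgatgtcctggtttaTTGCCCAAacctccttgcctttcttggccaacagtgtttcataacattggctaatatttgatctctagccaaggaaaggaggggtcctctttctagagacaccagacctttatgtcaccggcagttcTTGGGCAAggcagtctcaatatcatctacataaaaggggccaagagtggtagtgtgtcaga
Ltf (chr9:111019042-111019341, plus strand): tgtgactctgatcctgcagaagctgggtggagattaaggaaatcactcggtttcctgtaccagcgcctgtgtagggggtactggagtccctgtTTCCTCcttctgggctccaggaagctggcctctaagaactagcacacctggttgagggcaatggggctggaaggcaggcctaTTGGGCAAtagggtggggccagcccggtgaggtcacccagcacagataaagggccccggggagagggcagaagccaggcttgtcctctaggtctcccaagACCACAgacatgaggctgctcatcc
S100a8 (chr3:90668821-90669120, plus strand): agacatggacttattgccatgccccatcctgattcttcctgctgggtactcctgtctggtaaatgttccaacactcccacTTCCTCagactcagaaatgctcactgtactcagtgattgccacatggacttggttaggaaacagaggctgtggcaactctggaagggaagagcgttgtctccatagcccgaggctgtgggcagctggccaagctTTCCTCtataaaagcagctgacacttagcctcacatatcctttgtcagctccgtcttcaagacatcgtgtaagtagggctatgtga
S100a9 (chr3:90695672-90695971, minus strand): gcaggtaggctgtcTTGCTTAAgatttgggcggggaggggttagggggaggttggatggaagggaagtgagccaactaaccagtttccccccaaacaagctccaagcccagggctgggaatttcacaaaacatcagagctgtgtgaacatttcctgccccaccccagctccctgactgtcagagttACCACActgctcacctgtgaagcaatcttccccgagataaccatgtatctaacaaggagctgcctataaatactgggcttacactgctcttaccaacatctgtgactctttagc
The Ngp promoter held 2 C/EBP matches, first bases at -138 and -11 from the start site. The Ltf promoter held 1 PU.1, 1 C/EBP and 1 RUNX match, that of S100a8 held 2 PU.1 matches, and that of S100a9 held 1 C/EBP and 1 RUNX match. None of the 4 motifs overlapped another in these promoters.

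Over all 10 members, C/EBP letters stood in 4 promoters (Ngp, Ltf, Mmp8 and S100a9), against 10.8% of all 32544 promoters of the table. PU.1 letters stood in 7 (Mpo, Elane, Prtn3, Ctsg, Ltf, Mmp8 and S100a8), against 28.1% of all promoters. RUNX letters stood in 3 (Ctsg, Ltf and S100a9), against 16.7%. STAT letters stood in 1, Ctsg, against 8.33%, and the Camp promoter held none of the 4 motifs. These matches describe letters in a window and are not binding sites. Some members share a chromosome: Prtn3 and Elane lie 3137 bases apart on chromosome 10 and S100a8 and S100a9 22595 bases apart on chromosome 3. On chromosome 9, Camp and Ngp lie 570351 bases apart and Ngp and Ltf 596279.

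In 9 of the 10 members, the widest range between arrays of a single genotype exceeded the range of the 4 genotype means, and in Elane it was 0.22 against 0.23. Means vary less than single arrays, so genes without any difference would mostly show this too. The share over all genes was not counted, and the count is not read as a trait of the members. A gene entered the test if its signal exceeded the 40th percentile of all clusters on an array, 5.46 to 5.63, in at least 3 arrays, which left 13977 genes. Mpo, Prtn3, Camp, Ngp, Ltf, S100a8 and S100a9 passed, above it in 9 to 12 arrays. Elane passed in 1 array and Ctsg and Mmp8 in 0, so these 3 are described by their values, and for them a low signal limits what a difference can show. No member was called in any of 5 comparisons (limma, Benjamini-Hochberg adjusted p under 0.05). At an unadjusted p under 0.05 there were 3 of 7 for Stat3 deletion without the Mdr2 knockout, 2 of 7 for the difference between the Stat3 deletion effects, and 0 of 7 in the other 3. The share of all tested genes under this unadjusted threshold was not counted, and the members were not independent. These counts are therefore not read as an excess. Because the tissue was whole liver, fewer granulocytes and less transcript in each of them cannot be told apart.

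**Figure D1:**
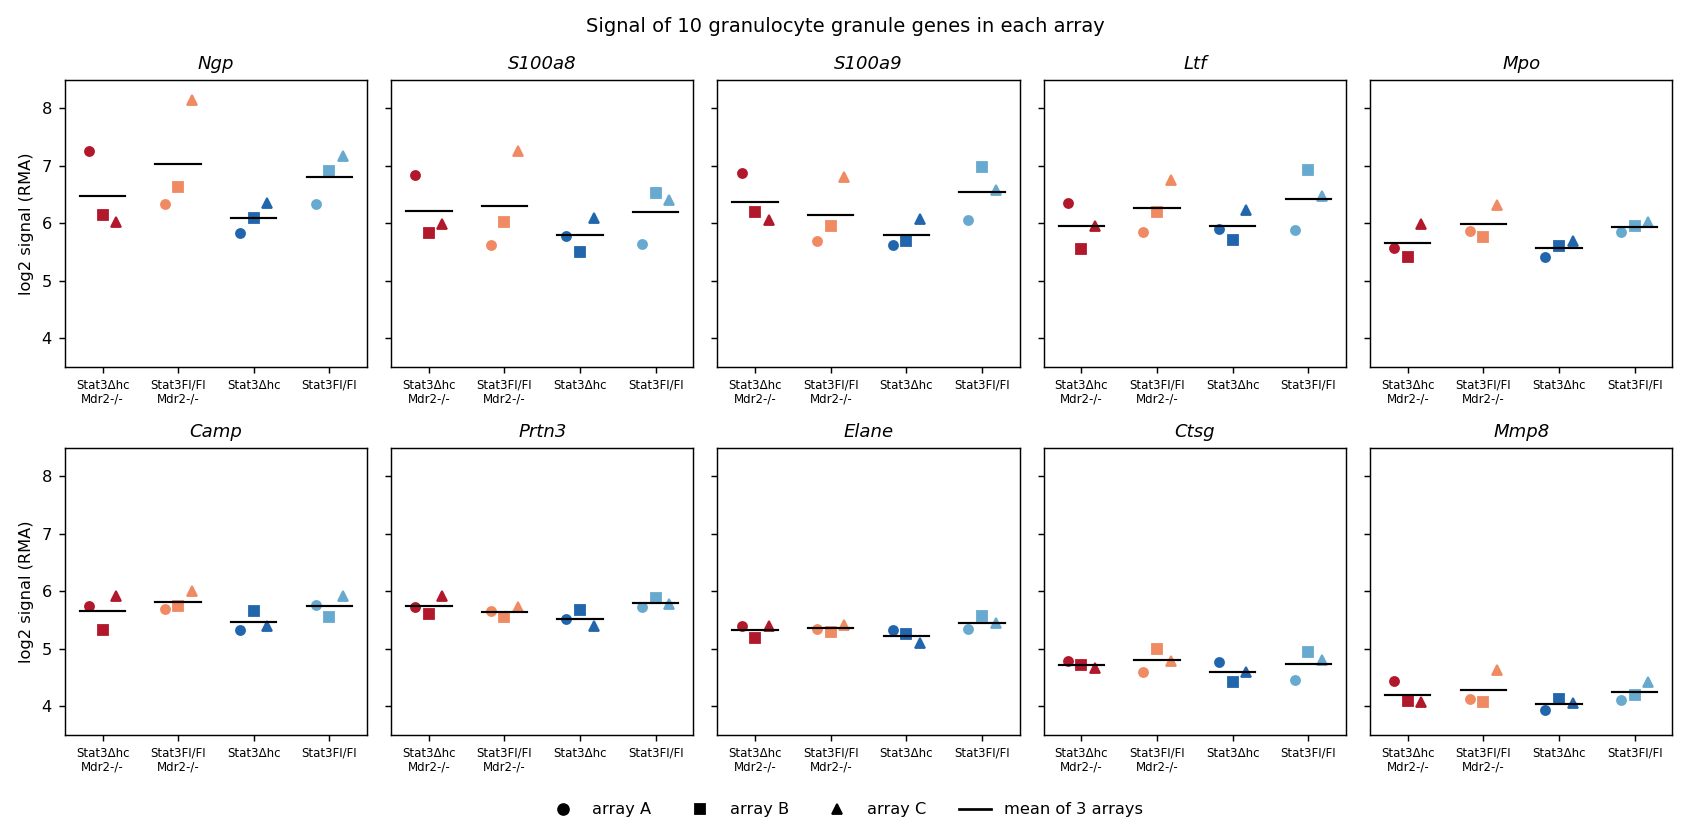
Log2 RMA signal (vertical axis) of the 10 granulocyte granule genes in each of the 12 arrays, by genotype (horizontal axis). Symbols mark arrays A, B and C and the line is the mean of 3 arrays. In Ngp, array C of Stat3Fl/Fl Mdr2-/- liver stands at 8.15 and the other 11 arrays between 5.83 and 7.26, whereas Elane and Prtn3 stay within 0.47 and 0.52 over all 12.

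Among the azurophil genes, Mpo encodes myeloperoxidase, the enzyme that makes hypochlorous acid. Its log2 signal was 5.57, 5.41 and 5.99 in Stat3Δhc Mdr2-/- liver, 5.87, 5.76 and 6.32 in Stat3Fl/Fl Mdr2-/- liver, 5.42, 5.61 and 5.70 in Stat3Δhc liver, and 5.85, 5.95 and 6.02 in Stat3Fl/Fl liver (arrays A, B and C each). All 3 Stat3Δhc arrays lay below all 3 Stat3Fl/Fl arrays, and the Mdr2-/- arrays overlapped. The difference was -0.36 without the Mdr2 knockout (SE 0.16, limma adjusted p = 0.276) and -0.33 on it (SE 0.16, adjusted p = 0.195). In the annotation Mpo overlaps the predicted gene Gm34064, and probes in a shared stretch would not tell them apart.

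Prtn3 encodes proteinase 3, a serine protease of the same granules. It had log2 signals of 5.72, 5.60 and 5.91 in Stat3Δhc Mdr2-/- liver, 5.66, 5.56 and 5.72 in Stat3Fl/Fl Mdr2-/- liver, 5.51, 5.68 and 5.39 in Stat3Δhc liver, and 5.73, 5.89 and 5.78 in Stat3Fl/Fl liver. The Stat3Fl/Fl arrays stood above all Stat3Δhc arrays and above all Stat3Fl/Fl Mdr2-/- arrays, by small steps. The difference was -0.27 in Stat3Δhc against Stat3Fl/Fl liver (SE 0.10, unadjusted p = 0.0192, limma adjusted p = 0.188).

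Elane encodes neutrophil elastase and is the neighbour of Prtn3. Its signals were 5.39, 5.18 and 5.40 in Stat3Δhc Mdr2-/- liver, 5.35, 5.30 and 5.42 in Stat3Fl/Fl Mdr2-/- liver, 5.32, 5.26 and 5.10 in Stat3Δhc liver, and 5.35, 5.57 and 5.45 in Stat3Fl/Fl liver. It too was lower in all Stat3Δhc than in all Stat3Fl/Fl arrays (difference -0.23), at signals under the filter in 11 of 12 arrays and above it in array B of Stat3Fl/Fl liver. Ctsg, cathepsin G, lay between 4.43 and 5.0 in all 12 arrays, with overlapping genotypes and genotype means between 4.60 and 4.80.

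Among the specific granule genes, Ngp encodes neutrophilic granule protein, a cystatin-related protein of mouse neutrophils. Its log2 signal was 7.26, 6.14 and 6.02 in Stat3Δhc Mdr2-/- liver, 6.33, 6.63 and 8.15 in Stat3Fl/Fl Mdr2-/- liver, 5.83, 6.10 and 6.35 in Stat3Δhc liver, and 6.33, 6.92 and 7.18 in Stat3Fl/Fl liver. In each Mdr2-/- genotype 1 array stood far above the other 2, array A of Stat3Δhc Mdr2-/- and array C of Stat3Fl/Fl Mdr2-/-. The highest and lowest arrays of Stat3Fl/Fl Mdr2-/- liver differed 3.53-fold, and the highest and lowest of all 12 differed 4.98-fold.

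The Ngp means were 6.48 ± 0.69 in Stat3Δhc Mdr2-/-, 7.04 ± 0.97 in Stat3Fl/Fl Mdr2-/-, 6.09 ± 0.26 in Stat3Δhc and 6.81 ± 0.43 in Stat3Fl/Fl liver (SD, n = 3 each). The difference was -0.56 for Stat3 deletion on the Mdr2 knockout (SE 0.42, limma adjusted p = 0.383), with a 95% confidence interval from -1.48 to 0.35, and -0.71 without it (SE 0.42, adjusted p = 0.443), from -1.63 to 0.20. A change of more than 2-fold down was thus inside both intervals, and so was no change. Without array C of Stat3Fl/Fl Mdr2-/- liver the first of these differences was -0.01.

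Ltf encodes lactoferrin, the iron-binding protein of specific granules. It had log2 signals of 6.36, 5.55 and 5.96 in Stat3Δhc Mdr2-/- liver, 5.85, 6.20 and 6.76 in Stat3Fl/Fl Mdr2-/- liver, 5.91, 5.71 and 6.24 in Stat3Δhc liver, and 5.89, 6.93 and 6.48 in Stat3Fl/Fl liver. Every pair of genotypes overlapped, and the means of the 2 Stat3Δhc genotypes were both 5.96. Camp, the precursor of the antimicrobial cathelicidin peptide, lay between 5.32 and 6.0, with means of 5.67 ± 0.31 in Stat3Δhc Mdr2-/-, 5.81 ± 0.16 in Stat3Fl/Fl Mdr2-/-, 5.46 ± 0.17 in Stat3Δhc and 5.74 ± 0.19 in Stat3Fl/Fl liver (SD, n = 3 each). Mmp8, neutrophil collagenase, lay between 3.93 and 4.63 and was below the filter in all 12 arrays; it overlaps the predicted gene Gm31751. Its highest arrays were array C of Stat3Fl/Fl Mdr2-/- liver at 4.63 and array A of Stat3Δhc Mdr2-/- liver at 4.44, the arrays that were highest in Ngp within their genotypes.

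S100a8 and S100a9 encode the 2 subunits of calprotectin, a calcium-binding and metal-sequestering complex of the neutrophil cytosol. S100a8 had log2 signals of 6.84, 5.84 and 5.99 in Stat3Δhc Mdr2-/- liver, 5.62, 6.03 and 7.26 in Stat3Fl/Fl Mdr2-/- liver, 5.78, 5.50 and 6.09 in Stat3Δhc liver, and 5.64, 6.53 and 6.41 in Stat3Fl/Fl liver. S100a9 had 6.87, 6.19 and 6.06 in Stat3Δhc Mdr2-/- liver, 5.69, 5.96 and 6.81 in Stat3Fl/Fl Mdr2-/- liver, 5.63, 5.70 and 6.08 in Stat3Δhc liver, and 6.06, 6.98 and 6.59 in Stat3Fl/Fl liver. The same arrays were high in both genes: array A of Stat3Δhc Mdr2-/-, array C of Stat3Fl/Fl Mdr2-/-, and arrays B and C of Stat3Fl/Fl liver.

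Among the 4 comparisons of 2 genotypes, S100a9 had the largest difference of any tested member, -0.74 in Stat3Δhc against Stat3Fl/Fl liver (SE 0.30, 95% confidence interval -1.38 to -0.10, unadjusted p = 0.0264, limma adjusted p = 0.223). Its arrays nearly separated, with the highest Stat3Δhc array at 6.08 and the lowest Stat3Fl/Fl array at 6.06. On the Mdr2 knockout the difference was 0.22, in the other direction (SE 0.30, adjusted p = 0.639). A test of whether the effects differ gave 0.96 (SE 0.42, 95% confidence interval 0.05 to 1.86, unadjusted p = 0.0393, adjusted p = 0.279), which did not pass. S100a8 differed by -0.40 without the Mdr2 knockout (SE 0.38, adjusted p = 0.671) and by -0.08 on it (SE 0.38, adjusted p = 0.906).

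The members differed widely in how much they varied between arrays of the same genotype. The SD between arrays of the same genotype, pooled over the 4 genotypes, was 0.65 for Ngp, which is larger than that of 99.6% of the tested genes, whose median was 0.137. It was 0.58 for S100a8, larger than 99.5% of tested genes. For S100a9 it was 0.45 and for Ltf 0.42, larger than 99% and 98.9% of tested genes. Mpo at 0.23, Camp at 0.22, Mmp8 at 0.21 and Ctsg at 0.18 lay between 77% and 89.1%, and Prtn3 at 0.12 and Elane at 0.10 lay under the median. Elane, Ctsg and Mmp8 did not pass the filter, and Prtn3 lay between percentiles 38.7 and 46.8 of all clusters. The part of low signal in the SD of these genes was not tested. The 3 arrays per genotype therefore allow a much less precise comparison for the 4 most variable members than for the median gene, for which the standard error of a comparison was 0.11.

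**Figure D2:**
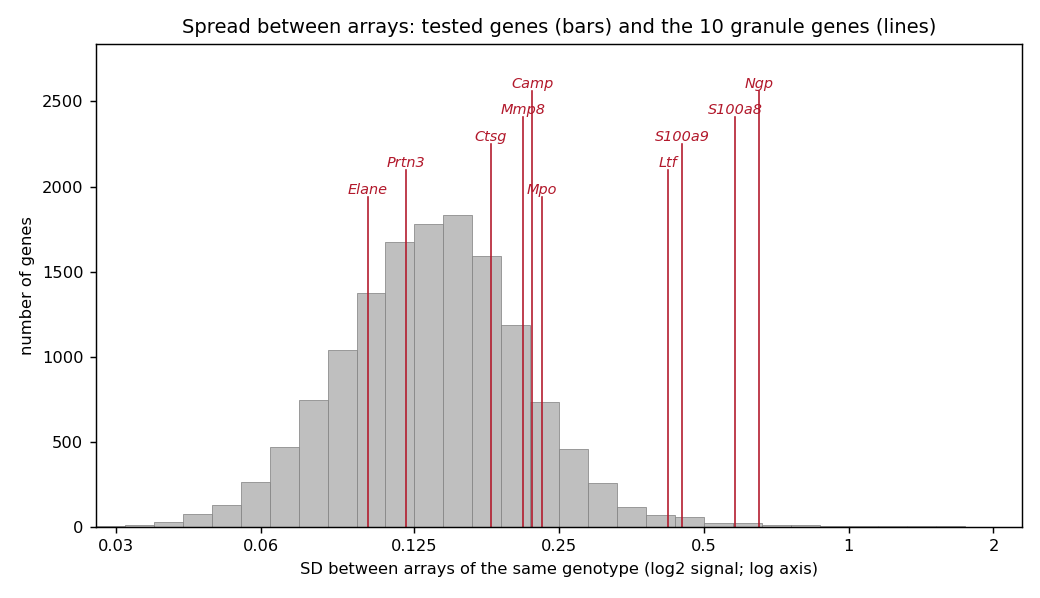
Histogram of the SD between arrays of the same genotype for the 13977 tested genes (horizontal axis in log2 signal, drawn on a log scale; vertical axis, number of genes), with a line for each of the 10 granule genes. Ngp at 0.65, S100a8 at 0.58, S100a9 at 0.45 and Ltf at 0.42 stand in the upper tail, and Prtn3 at 0.12 and Elane at 0.10 below the median of 0.137.

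The members moved together from array to array. With each gene centred on its mean of 12 arrays, the mean of the 10 members was highest in array C of Stat3Fl/Fl Mdr2-/- liver, at 0.54, where 10 of 10 members stood above their own mean. Arrays B and C of Stat3Fl/Fl liver followed at 0.30 and 0.26, with 9 and 10 members above, and array A of Stat3Δhc Mdr2-/- liver at 0.25, with 9 above. The lowest arrays were A and B of Stat3Δhc liver at -0.30 and -0.27 and array B of Stat3Δhc Mdr2-/- liver at -0.25, with 1 member above its mean in each. High and low arrays thus stood side by side within Stat3Δhc Mdr2-/- liver, and each genotype except Stat3Δhc held at least 1 of the 4 highest arrays.

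**Figure D3:**
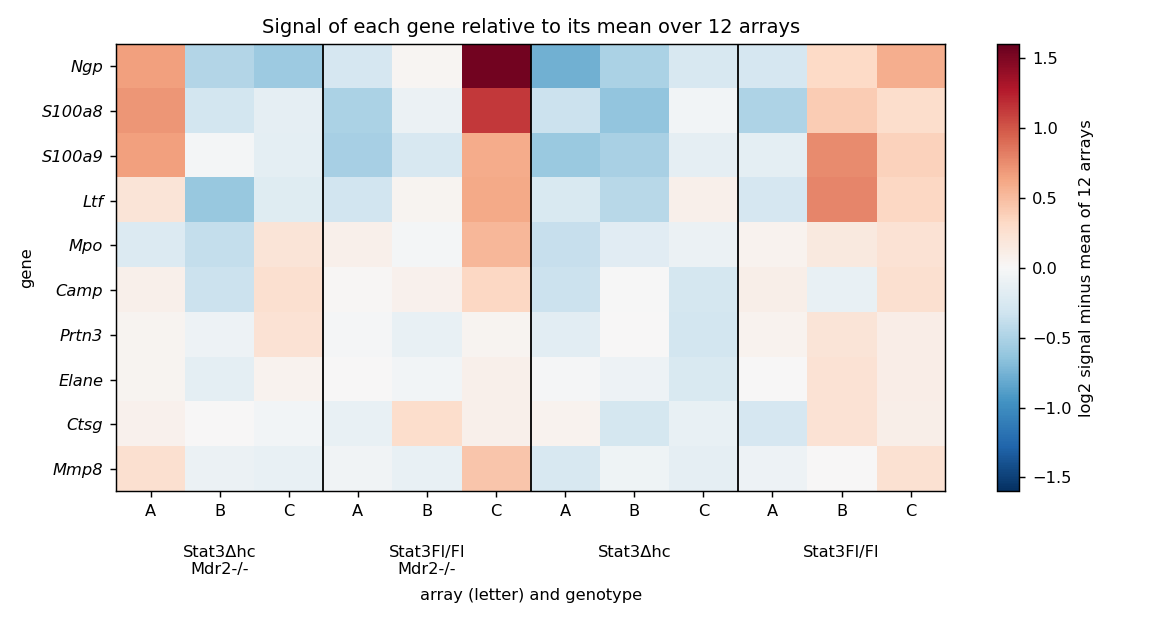
Log2 signal of each granule gene (rows) in each array (columns, by genotype and letter) minus the gene's mean over 12 arrays; red is above and blue below that mean. The column of array C of Stat3Fl/Fl Mdr2-/- liver is red in 10 of 10 genes, and the 3 Stat3Δhc columns each have 1 gene above its mean.

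As a description over the 12 arrays, which share RNA, hybridization and RMA scaling across genes, all 45 pairs of members had a Pearson r above 0, with a median of 0.56 and values from 0.06 (Camp with Ctsg) to 0.95 (Ngp with Mmp8). With the genotype means taken off, 42 of 45 pairs stayed above 0, with a median of 0.47. S100a8 with S100a9 then had an r of 0.96, Ngp with S100a8 0.95 and Elane with Prtn3 0.79. Without the 2 arrays farthest from the median of the members' mean, array C of Stat3Fl/Fl Mdr2-/- and array B of Stat3Fl/Fl liver, 43 of 45 pairs were above 0 in the remaining 10 arrays, with a median of 0.45. In these 10 arrays Ngp with Mmp8 had an r of 0.92, S100a8 with S100a9 0.90 and Ngp with S100a8 0.82.

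Other genes followed the same arrays. Outside the members, the 8 tested genes most like their mean over 12 arrays were Tm6sf1 (r = 0.91), Dynll1 (0.90), Cyrib (0.89), Cald1 (0.89), Arhgdib (0.89), Itgb2 (0.88), Flna (0.88) and Obi1 (0.88). Itgb2 encodes the beta 2 chain of leukocyte integrins and Flna the actin crosslinker filamin A. With genotype means taken off they were Ms4a6c (0.98), Sh3kbp1 (0.97), Alcam (0.95), Ncf4 (0.95), Myof (0.95), Cers5 (0.94), Spi1 (0.94) and Tbpl1 (0.93). Ncf4 encodes a subunit of the phagocyte oxidase and Spi1 the transcription factor PU.1. These genes were picked as the highest among 13977, so the size of r is partly the result of that choice.

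Cell type markers were followed in the same way, with genotype means taken off and r over 12 arrays. The members' mean had an r of 0.94 with 22 other granule and secreted genes, 0.94 with 20 neutrophil receptor and adhesion genes, and 0.96 with 4 monocyte markers. It had 0.68 with 8 macrophage and Kupffer cell markers, 0.65 with 4 megakaryocyte markers, 0.61 with 8 neutrophil precursor genes, 0.40 with 7 lymphocyte markers and 0.01 with 6 erythroid markers. It had -0.51 with 6 hepatocyte genes and 0.02 with 5 skeletal muscle genes. Among the other lists it had 0.78 with 7 protease inhibitors and 0.77 with 13 calprotectin receptors and S100 relatives. It had only 0.04 with 12 granulocyte transcription factors, a list that holds Spi1, and 0.08 with 12 neutrophil chemoattractants and growth factors. Without taking off the genotype means, r was 0.80 for the other granule genes, 0.70 for monocyte, 0.70 for megakaryocyte and 0.67 for neutrophil receptor genes. It was 0.65 for lymphocyte and 0.64 for macrophage markers, and -0.70 for hepatocyte genes. The protease inhibitors then had only 0.22, and the calprotectin receptors and S100 relatives 0.08. The parts of these cells in the members' spread were not tested. Among markers of mature neutrophils, Csf3r lay between 5.38 and 6.47 and Cd177 between 6.13 and 6.49 and both passed the filter, whereas Ly6g (4.15 to 4.73), Cxcr2 (3.45 to 4.60) and Retnlg (4.05 to 4.70) did not.

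Stat3 deletion on the Mdr2 knockout, Stat3Δhc Mdr2-/- against Stat3Fl/Fl Mdr2-/- liver, addresses the livers that develop cholestatic injury. Of the 7 tested members 0 were called, where 5.77% of all tested genes were. Mpo, Ngp, Ltf, Camp and S100a8 were lower in the mean and S100a9 and Prtn3 higher, and 2 of the 7 differences were above 0. The median difference over all 10 members was -0.08, against 0.03 over all 19938 measured genes. Of 8 macrophage and Kupffer cell markers 7 had a difference below 0 and 2 fell, with a median of -0.42, and their part was not tested. Single arrays turned 3 of the signs. S100a9 was at -0.03 without array A of Stat3Δhc Mdr2-/- liver and at -0.01 without array A of Stat3Fl/Fl Mdr2-/- liver. S100a8 was at 0.40 without array C of Stat3Fl/Fl Mdr2-/- liver, and at 0.11 and 0.04 without arrays B and C of Stat3Δhc Mdr2-/- liver, and Camp was at 0.03 without that array B.

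Stat3 deletion without the Mdr2 knockout, Stat3Δhc against Stat3Fl/Fl liver, put all 10 members on the same side of 0. The mean of every one of the 10 members was lower in Stat3Δhc liver, which had the lowest mean of the 4 genotypes for each of them, level with Stat3Δhc Mdr2-/- liver at 5.96 for Ltf. Of the 7 tested members 0 were called, where 2.58% of all tested genes were, and the median difference over all 10 was -0.32, against -0.02 over all measured genes. In Mpo, Prtn3 and Elane all 3 Stat3Δhc arrays lay below all 3 Stat3Fl/Fl arrays, a pattern that 10.8% of tested genes showed. The members were not independent, since they moved together from array to array. The low value of Stat3Δhc liver stood beside low values of some other blood cell markers and not of all. All 8 macrophage and Kupffer cell markers had a difference below 0, with a median of -0.28 and 0 called. The 5 tested lymphocyte markers had a median of -0.33. Of 12 tested neutrophil receptor and adhesion genes 2 were above 0 (median -0.19), and of 18 other granule and secreted genes 3 were (median -0.17). Of 4 megakaryocyte markers 0 were above 0 (median -0.29), as were 0 of 3 early B cell and 0 of 3 eosinophil, basophil and mast cell markers. Of 4 monocyte markers 2 were above 0 (median 0.01). Of 6 tested neutrophil precursor genes 3 were (median -0.05), by little: Mgst1 at 0.04, Cebpe at 0.01 and Gfi1 at 0.01. The part of these cells was not tested.

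Giving each array a weight from its overall fit changed this comparison. With limma's array weights, which ran from 0.26 to 9.01 with array A of Stat3Δhc liver at 9.01, 5 of the 7 members were lower at an adjusted p under 0.05, where 21.1% of all tested genes were called. They were Mpo (-0.50, adjusted p = 0.00739), S100a9 (-0.95, adjusted p = 0.00744), Prtn3 (-0.29, adjusted p = 0.0106), Ngp (-1.0, adjusted p = 0.0338) and Camp (-0.38, adjusted p = 0.0344). Under the same weights 1 member was called on the Mdr2 knockout, Mpo at -0.55 (adjusted p = 0.022), where 16.4% of tested genes were. Array A of Stat3Δhc liver, with the highest weight, was also the lowest of all 12 in the members' mean, and its part in these calls was not tested.

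The difference between the Stat3 deletion effects, on and without the Mdr2 knockout, was called for 0 of the 7 tested members and for 0.0715% of all tested genes. It was above 0 in 7 of 7, with a median of 0.16 over all 10 members against 0.03 over all measured genes. The share of all genes above 0 was not counted. Leaving out single arrays turned the sign of Mpo, Ngp, Ltf and S100a8. Among tested neutrophil receptor and adhesion genes 11 of 12 were above 0 as well (median 0.25), and 15 of 18 other granule and secreted genes (median 0.16). S100a9 at 0.96 and Prtn3 at 0.37 (SE 0.14, 95% confidence interval 0.06 to 0.68, limma adjusted p = 0.254) had the largest differences relative to their error. Both comparisons of Stat3 deletion enter it, so it is not independent of them.

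**Figure D4:**
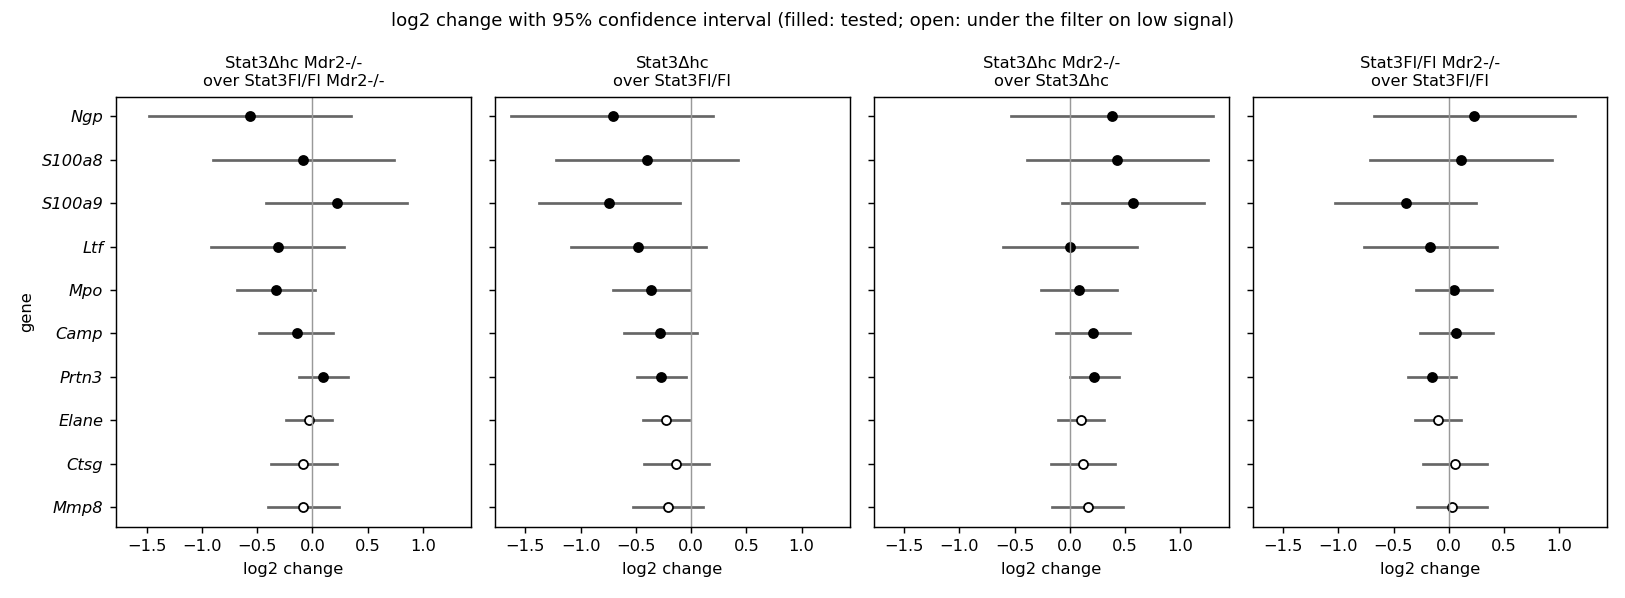
Log2 difference (horizontal axis) with its 95% confidence interval for each granule gene (vertical axis) in 4 comparisons; filled points were tested and open points lay under the filter on low signal. All 10 points lie below 0 for Stat3Δhc over Stat3Fl/Fl, and no interval excluding 0 belongs to a gene that passed the adjusted test.

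Mdr2 loss in Stat3Δhc liver, Stat3Δhc Mdr2-/- against Stat3Δhc liver, raised no member past the test. Of the 7 tested members 0 were called, where 17.4% of all tested genes were, and the median difference over all 10 was 0.18 against 0.04 over all measured genes. S100a9 was 0.57 higher (SE 0.30, 95% confidence interval -0.07 to 1.21, limma adjusted p = 0.186), S100a8 0.43 (SE 0.38, adjusted p = 0.424) and Ngp 0.38 (SE 0.42, adjusted p = 0.53), and Ltf did not differ in the mean (0.00, SE 0.28). Without array A of Stat3Δhc Mdr2-/- liver, which also had the Xist pattern, the differences were 0.32 for S100a9, 0.13 for S100a8 and -0.01 for Ngp. With array weights S100a9 was called (0.63, adjusted p = 0.0218), where 41.7% of tested genes were.

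Mdr2 loss in floxed liver, Stat3Fl/Fl Mdr2-/- against Stat3Fl/Fl liver, gave differences on both sides of 0. Of the 7 tested members 0 were called, where 12.8% of all tested genes were. Ngp was 0.23 higher (SE 0.42, limma adjusted p = 0.78) and S100a9 differed by -0.39 (SE 0.30, adjusted p = 0.451). All 3 Prtn3 arrays of Stat3Fl/Fl Mdr2-/- liver lay below all 3 of Stat3Fl/Fl liver (difference -0.15), as those of 15.1% of tested genes did. The median difference over all 10 members was 0.04, against -0.01 over all measured genes. The comparisons share arrays in pairs, so their values are given side by side and not as separate evidence.

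Several other genes that granulocytes express passed the test with Mdr2 loss. Of 18 tested genes for other granule and secreted proteins, 5 rose and 1 fell in Stat3Δhc liver, with a median change of 0.32 against -0.02 over all tested genes, and 3 rose and 1 fell in floxed liver. Over all tested genes 17.4% were called with Mdr2 loss in Stat3Δhc liver and 12.8% in floxed liver, in either direction, and the counts of the lists that follow stand beside these shares. Lcn2, lipocalin 2, is a specific granule protein that hepatocytes also secrete in the acute phase. Its log2 signal was 11.46, 10.01 and 10.76 in Stat3Δhc Mdr2-/- liver, 11.30, 11.61 and 11.90 in Stat3Fl/Fl Mdr2-/- liver, 7.71, 7.88 and 8.25 in Stat3Δhc liver, and 8.36, 8.99 and 9.35 in Stat3Fl/Fl liver. All 6 Mdr2-/- arrays stood above all others, and Lcn2 rose 6.93-fold with Mdr2 loss in Stat3Δhc liver (log2 change 2.79, SE 0.32, limma adjusted p = 1.31e-04) and 6.51-fold in floxed liver (2.70, SE 0.32, adjusted p = 2e-04). Within each Mdr2-/- genotype the array highest in Ngp was also the highest in Lcn2.

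Slpi, the secreted inhibitor of elastase and cathepsin G, rose 2.12-fold with Mdr2 loss in Stat3Δhc liver (log2 change 1.08, SE 0.25, limma adjusted p = 0.0103) and 2.69-fold in floxed liver (1.43, SE 0.25, adjusted p = 0.00252). Cybb, the membrane subunit of the phagocyte oxidase, rose 1.91-fold in Stat3Δhc liver (0.93, SE 0.17, adjusted p = 0.00265) and 1.86-fold in floxed liver (0.90, SE 0.17, adjusted p = 0.00393). Serpinb1a, an intracellular inhibitor of the neutrophil serine proteases, fell by 1.57 on the log2 scale in Stat3Δhc liver (SE 0.18, adjusted p = 1.39e-04) and by 0.94 in floxed liver (SE 0.18, adjusted p = 0.00492). In all Mdr2-/- arrays Serpinb1a lay under the filter, at 4.50 to 4.99, so it entered the test only through the other genotypes. Neither the inhibitors nor Cybb belong to neutrophils alone, and the cell that made them was not measured. The changes of Lcn2, Slpi, Cybb and Serpinb1a passed with any 1 array left out. With the Xist and Y-linked pattern as a covariate the 4 floxed-liver calls were lost, with an adjusted p of 0.193 for Lcn2 (log2 change 1.63), 0.543 for Slpi (0.67), 0.265 for Cybb (0.94) and 0.298 for Serpinb1a (-0.97). In this fit the differences of Cybb and Serpinb1a were as large as without the covariate, and those of Lcn2 and Slpi were smaller. The pattern varied only within Stat3Δhc Mdr2-/- liver, so its effect was estimated from array A against arrays B and C of that genotype. The fit therefore carries the deviation of that array into floxed liver and cannot separate the pattern from Mdr2 loss there.

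Of 12 tested genes for neutrophil receptors, adhesion and cytosolic proteins, 5 rose and 0 fell with Mdr2 loss in Stat3Δhc liver, with a median change of 0.34 against -0.02 over all tested genes, and 2 rose and 0 fell in floxed liver, where 17.4% and 12.8% of all tested genes were called. Csf3r, the receptor for granulocyte colony stimulating factor, had signals of 6.47, 6.05 and 6.10 in Stat3Δhc Mdr2-/- liver against 5.45, 5.38 and 5.45 in Stat3Δhc liver. It rose 1.72-fold there (log2 change 0.78, SE 0.13, limma adjusted p = 0.00187) and had a difference of 0.28 in floxed liver (SE 0.13, adjusted p = 0.204). All 3 Stat3Δhc signals of Csf3r lay under the filter of 5.46 to 5.63. A low signal in that genotype therefore limits what the size of the rise can show. Selplg, the selectin ligand PSGL-1, rose by 0.50 (SE 0.10, adjusted p = 0.00537) in Stat3Δhc liver, with a difference of 0.11 in floxed liver (SE 0.10, adjusted p = 0.539). Whether the Mdr2 effects differ between Stat3Δhc and floxed liver is the same contrast as the difference between the Stat3 deletion effects, and it did not pass for either gene (adjusted p = 0.246 for both).

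S100a11, a calcium-binding relative of S100a8 that many cell types express, rose with Mdr2 loss by 1.14 in Stat3Δhc liver (SE 0.24, limma adjusted p = 0.00672) and by 1.0 in floxed liver (SE 0.24, adjusted p = 0.0156). Cxcr4, the receptor that holds neutrophils in the marrow, rose by 0.77 in Stat3Δhc liver (SE 0.19, adjusted p = 0.0143) and by 0.65 in floxed liver (SE 0.19, adjusted p = 0.0379). The Cxcr4 call in Stat3Δhc liver was lost without array A (adjusted p = 0.056) or C (0.0609) of Stat3Δhc liver. That in floxed liver was lost without array A (adjusted p = 0.0788) or C (0.152) of Stat3Fl/Fl Mdr2-/-, array A of Stat3Δhc (0.0521), or array A (0.122) or C (0.0514) of Stat3Fl/Fl liver. The S100a11 call in floxed liver was lost without array C of Stat3Fl/Fl Mdr2-/- (adjusted p = 0.065) and without array A of Stat3Fl/Fl liver (adjusted p = 0.0622).

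**Figure D5:**
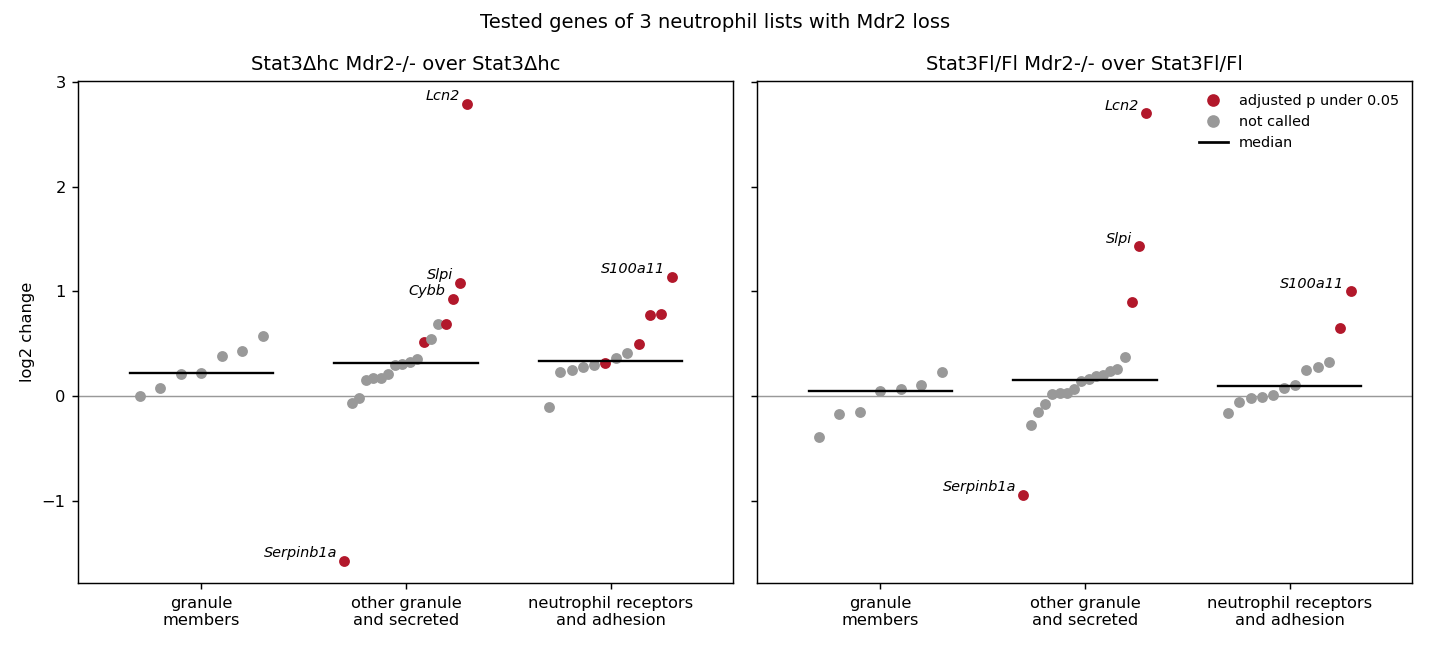
Log2 change with Mdr2 loss (vertical axis) of each tested gene of 3 gene lists (horizontal axis) in Stat3Δhc liver (left) and floxed liver (right); red points passed the test, grey points did not and the line is the median. Of the granule members 0 of 7 are red in either panel, whereas Lcn2 stands at 2.79 and 2.70 and Serpinb1a at -1.57 and -0.94.

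The transcription factors of granulocyte development were called about as often as all tested genes (17.4% in Stat3Δhc and 12.8% in floxed liver). Of 11 tested, 2 rose with Mdr2 loss in Stat3Δhc liver, Irf8 by 0.49 (SE 0.09, limma adjusted p = 0.00377) and Spi1 by 0.43 (SE 0.12, adjusted p = 0.0336). Irf8 directs precursors towards monocytes, and Spi1 is needed by both lineages. The Spi1 call was lost without array A (adjusted p = 0.0788) or C (0.0723) of Stat3Δhc Mdr2-/- or without array A (0.0851), B (0.0653) or C (0.0886) of Stat3Δhc liver, at log2 differences of 0.37 to 0.43. With Mdr2 loss in floxed liver 1 of 11 fell, Per3 by 0.83 (SE 0.19, adjusted p = 0.0119), which is better known as a clock gene, and its adjusted p was 0.0552 without array C of Stat3Fl/Fl Mdr2-/- liver. Myb, a factor of immature blood cells, fell by 0.58 with Stat3 deletion on the Mdr2 knockout (SE 0.12, adjusted p = 0.0175), a call lost without array C of Stat3Fl/Fl Mdr2-/- (adjusted p = 0.0668) or array B of Stat3Δhc Mdr2-/- liver (adjusted p = 0.0627).

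Chemoattractants and growth factors of neutrophils were mostly weak, with 5 of 12 measured genes above the filter. Of these, 1 rose and 1 fell with Mdr2 loss in Stat3Δhc liver and 1 fell in floxed liver, where 17.4% and 12.8% of all tested genes were called. Cxcl12, which retains Cxcr4-bearing cells, fell by 0.80 with Mdr2 loss in Stat3Δhc liver (SE 0.11, limma adjusted p = 6.34e-04) and by 0.66 in floxed liver (SE 0.11, adjusted p = 0.00248). Csf1, the macrophage growth factor, rose by 0.43 in Stat3Δhc liver (SE 0.10, adjusted p = 0.0107), with an adjusted p of 0.0534 without array A of Stat3Δhc liver. Cxcl1, a ligand of Cxcr2, had signals of 7.87, 7.45 and 7.83 in Stat3Δhc Mdr2-/- liver against 7.38, 7.32 and 7.11 in Stat3Δhc liver, and its difference of 0.44 did not pass (SE 0.15, adjusted p = 0.0569). Cxcl2 and Cxcl5, ligands of the same receptor, did not pass the filter and are described by their values, which a low signal limits. Cxcl2 exceeded the filter of 5.46 to 5.63 only in array A of Stat3Δhc Mdr2-/- liver, at 5.69. With Mdr2 loss in Stat3Δhc liver the differences of Cxcl2 and Cxcl5 were 0.88 and 0.44. In floxed liver that of Cxcl2 was 0.61.

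Of 7 tested protease inhibitors, a list that shares Slpi and Serpinb1a with the one above, 1 rose and 3 fell with Mdr2 loss in Stat3Δhc liver, and 2 rose and 3 fell in floxed liver, where 17.4% and 12.8% of all tested genes were called. Serpina1d, an alpha 1 antitrypsin gene of hepatocytes, fell by 2.82 in Stat3Δhc liver (SE 0.18, limma adjusted p = 1.1e-06) and by 1.96 in floxed liver (SE 0.18, adjusted p = 3e-05). Its near-identical paralogs can share probes, so which copy fell is uncertain. A2m, alpha 2 macroglobulin, rose by 1.37 with Mdr2 loss in floxed liver (SE 0.35, adjusted p = 0.022), a call lost without array B of Stat3Fl/Fl Mdr2-/- (adjusted p = 0.0532) or array B (0.0683) or C (0.0724) of Stat3Fl/Fl liver. It fell by 1.97 with Stat3 deletion on the Mdr2 knockout (SE 0.35, adjusted p = 0.0085), and fitting only these genotypes gave an adjusted p of 0.0508.

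Markers of other cells moved with Mdr2 loss beside these genes. Beside the 17.4% and 12.8% of all tested genes called in Stat3Δhc and floxed liver, 2 of 4 tested monocyte markers rose in Stat3Δhc liver and 1 in floxed liver. Ccr2, the monocyte chemokine receptor, rose by 1.03 in Stat3Δhc liver (SE 0.29, limma adjusted p = 0.0303). In all arrays without the Mdr2 knockout Ccr2 lay under the filter, at 4.91 to 5.36. It thus entered the test only through Mdr2-/- arrays, where it was high. Plac8 rose by 0.61 in floxed liver (SE 0.13, limma adjusted p = 0.00949). The mean log2 signal of the 4 measured monocyte markers ran from 6.02 to 6.69 in Stat3Δhc Mdr2-/-, 5.95 to 6.69 in Stat3Fl/Fl Mdr2-/-, 5.51 to 5.91 in Stat3Δhc and 5.53 to 6.0 in Stat3Fl/Fl liver. All 5 skeletal muscle markers fell in both comparisons, by a median of -3.23 in Stat3Δhc liver and -3.72 in floxed liver, and 3 and 2 of 4 erythroid markers fell. The source of the muscle signal was not tested, and it cannot be told apart from Mdr2 loss in either comparison. Of 6 tested neutrophil precursor genes 1 fell in Stat3Δhc liver and 0 were called in floxed liver. The gene was Mgst1, at 11.83, 11.79 and 11.67 in Stat3Δhc Mdr2-/- and 12.05, 12.03 and 12.16 in Stat3Δhc liver. Its signal stood far above that of the list's other genes, so its fall is not read as one of precursors. Of 5 tested lymphocyte markers 2 rose in Stat3Δhc liver, where all 5 differences were above 0 (median 0.25), and 0 were called in floxed liver. Of 3 tested eosinophil, basophil and mast cell markers 1 rose in Stat3Δhc liver and 0 were called in floxed liver. The 4 exocrine pancreas markers had median differences of -2.41 in Stat3Δhc liver, where 1 fell, and -1.79 in floxed liver, where 0 were called. The part of these cells in the changes of granulocyte genes was not tested.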

How the data were processed

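Total RNA of whole liver was labelled with biotin and hybridised, per the labels' protocols. The deposited values are log2 signals that the submitters' processing notes ascribe to RMA without naming its version. The genome build is not given in the sources used here. Of 35556 transcript clusters, 21789 named 1 gene, 1621 several and 12146 none in the platform annotation. A gene took its cluster of highest mean over 12 arrays (999 of 19938 genes had a choice). Groups follow the sample titles.

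Differences came from limma 3.58.1 in R 4.3.3 (lmFit and eBayes, all 12 arrays, 8 residual degrees of freedom, a prior of 4.82), with Benjamini-Hochberg adjustment over 13977 genes, tested on simulated data first. The number of arrays limits the precision. The alternatives were a 60th percentile filter, no filter, averaging all clusters of a gene, median centring, cyclic loess, array weights, eBayes with trend and robust settings, the compared groups alone, the letter as a block, groups by source name, an Xist and Y-linked covariate, and leaving out each array.

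Every member is named. From 5 further lists up to 4 genes were named, those called with the largest change, and the 8 genes most like the members by Pearson r. Cxcl1, Cxcl2, Cxcl5, Ccr2, Plac8, Cd177, Ly6g, Cxcr2 and Retnlg were named after their values were seen. The members and lists were chosen with earlier results of these data known, so they are not independent support for any pattern. Python 3.11.15 and its library matplotlib 3.10.9 drew the figures.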

Additional observations from a re-analysis of the deposited data

How the results depend on the processing

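Over 35 member values and their alternatives (773 values), 702 kept direction and side of the threshold, 64 changed sign, 7 newly passed and 0 were lost. All sign changes were in differences that passed no test. The lowest adjusted p was 0.0789 with an array left out and 0.0725 in any alternative other than array weights. For the 7 tested members, Stat3 deletion without the Mdr2 knockout had a negative difference in every alternative run. The number of members called stayed at 0 except with array weights (5 without the Mdr2 knockout, 1 on it and 1 for Mdr2 loss in Stat3Δhc liver). The causes of the changes below were not tested.

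For Stat3 deletion on the Mdr2 knockout, cyclic loess gave Prtn3 -0.03 and array weights -0.01. The source name field exchanges both groups of this comparison, so it turned each sign (Mpo 0.33, Prtn3 -0.10, Camp 0.14, Ngp 0.56, Ltf 0.31, S100a8 0.08, S100a9 -0.22, A2m 1.97, Myb 0.58). The Xist and Y-linked covariate gave Ngp 0.23, Ltf 0.09 and S100a8 0.53. With an array left out, Camp ran from -0.27 to 0.03, S100a8 from -0.42 to 0.40 and S100a9 from -0.03 to 0.54.

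For the difference of the effects, cyclic loess gave Mpo -0.15 and Camp -0.08, array weights gave Mpo -0.05, Camp -0.02 and Ltf -0.04, and the covariate gave Mpo -0.05. With an array left out, Mpo ran from -0.13 to 0.20, Ngp from -0.24 to 0.71, Ltf from -0.08 to 0.44 and S100a8 from -0.02 to 0.80.

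For Mdr2 loss in Stat3Δhc liver, cyclic loess gave Mpo -0.06 and Ltf -0.09, array weights gave Ltf -0.20, and the covariate gave Ngp -0.01 and Ltf -0.20. These covariate values equal those without array A of Stat3Δhc Mdr2-/- liver, so the covariate is not a separate alternative here. With an array left out, Mpo ran from -0.09 to 0.20, Ngp from -0.01 to 0.61 and Ltf from -0.20 to 0.20. For Mdr2 loss in floxed liver, source name gave Mpo -0.28, Camp -0.07, Ngp -0.33 and A2m -0.60, and the covariate gave Camp -0.06, Ngp -0.95 and S100a8 -0.81. With an array left out, Mpo ran from -0.12 to 0.16, Camp from -0.03 to 0.16, Ngp from -0.33 to 0.58, Ltf from -0.44 to 0.08 and S100a8 from -0.37 to 0.45.

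Whether the letters A to C pair the arrays was not settled. Of 18 same-letter pairs 3 correlated above 0.1 (range -0.41 to 0.37), and 6 of 12 arrays correlated best with their own letter. The pairs of Stat3Δhc with Stat3Fl/Fl liver had an r of 0.27 (A), 0.07 (B) and 0.37 (C). Those of the Mdr2-/- genotypes had -0.28 (A), 0.26 (B) and -0.07 (C). With the letter as a replicate block 0 members were called in each of the 5 comparisons and no named call was lost, and 473 genes in all were called for Stat3 deletion on the Mdr2 knockout, against 806.

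Of 25 calls of other named genes, fitting only the compared groups lost A2m (adjusted p = 0.0508) and Myb (0.0544) for Stat3 deletion on the knockout, Csf1 (0.0523) for Mdr2 loss in Stat3Δhc liver, and A2m (0.0716) and Cxcr4 (0.0808) in floxed liver, each at an unchanged log2 difference. The covariate lost all calls in floxed liver except Serpina1d, a comparison it is confounded with, Spi1 in Stat3Δhc liver (0.0788), and A2m (0.16) and Myb (0.121) on the knockout. Of these, A2m (-1.95) and Myb (-0.70) on the knockout and A2m (1.34), Cxcl12 (-0.74), S100a11 (0.89) and Cxcr4 (0.59) in floxed liver kept differences near those without it. All covariate values rest on array A against arrays B and C of Stat3Δhc Mdr2-/- liver, the only genotype in which the pattern varied. Source name lost Cxcr4 (0.2), Per3 (0.5) and S100a11 (0.0608) in floxed liver, cyclic loess lost Spi1 (0.0527), and trend and robust settings lost A2m in floxed liver (0.0503).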
